A study of Mus musculus with 12 samples.

Results

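Messenger RNA of 9 genes known from the urothelium and the renal pelvis, Upk1a, Upk1b, Upk2, Upk3a, Upk3b, Krt5, Trp63, Psca and Fcgbp, was followed across 12 mouse kidneys. The genes were taken by symbol from a table of 55487 genes, in which each had 1 entry. They were chosen by measured values of these kidneys, namely their shared variation between libraries and their levels on both diets, so those values are given as a description and support nothing further. All 9 of 9 passed the count filter, among 17890 genes in all.

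All kidneys were from mice with the X-linked form of Alport syndrome, a hereditary disorder of the type IV collagen in the glomerular filter, for which the labels name the collagen gene Col4a5. The fisetin group held 6 libraries from mice fed 500 ppm of fisetin, a plant flavonol, and the control group held 6 libraries from mice fed a control diet without it. Both groups shared the disease, the B6 background and an age of 30 weeks at collection, so diseased kidneys are compared with diseased kidneys throughout. The design text describes males, whereas the genotype field reads HET for an X-linked gene, and no allele status is used. Each of the 2 batches that the labels name held 3 fisetin and 3 control libraries. Libraries are numbered 1 to 6 within a diet, with 1 to 3 in batch 1 and 4 to 6 in batch 2, and the numbers pair nothing. Whether every library is a separate animal is not stated in the labels, and p-values here measure only library-to-library spread.

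The urothelium is the layered epithelium that lines the renal pelvis, ureter and bladder and keeps urine from the tissue beneath. Its superficial cells cover their urine-facing membrane with plaques of uroplakins: the tetraspanins Upk1a and Upk1b leave the endoplasmic reticulum as partners of Upk2 and of Upk3a or Upk3b. Its basal cells carry the keratin Krt5 and the transcription factor Trp63, and a coat of smooth muscle lies beneath it. In a kidney sample this epithelium comes with whatever pelvis is cut along with the organ.

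Total counts per library were 16310214 to 24451821. The members were counted from 4 times, for Upk2 in fisetin 3, to 243 times, so counting error alone is large for Upk2. In bulk RNA, fewer cells of a type and less RNA per cell cannot be told apart. Fisetin 3 stood apart, with the lowest value in 8 of the 9 genes, and the members' correlations with the uroplakin sum are given with and without it. The log2 summed level of the 5 uroplakins had r = -0.261 with the total count (n = 12), and r = -0.531 without fisetin 3 and fisetin 6, so it was not higher in deeper libraries.

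Per length, Psca was the most abundant member and Trp63 the least, as FPKM, the authors' fragments scaled for transcript length and depth, show over the 12 libraries. Psca averaged 14.2 ± 4.13 FPKM, Upk3a 5.74 ± 2.58, Upk1a 5.39 ± 2.39, Upk1b 4.32 ± 2.17 and Krt5 3.37 ± 1.46 (SD, n = 12). Upk2 followed at 1.96 ± 1.08 FPKM, Upk3b at 1.85 ± 0.488, Fcgbp at 1.07 ± 0.482 and Trp63 at 0.845 ± 0.202 (SD, n = 12). Neighbours in this order differed by less than the larger of their SDs, except for Psca above Upk3a and Upk3b above Fcgbp. All further levels are CPM, counts scaled for library size and composition, which compare a gene between libraries only.

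Upk1a, Upk1b and Upk2, a superficial-cell set, differed more between kidneys on one diet than between the diets. Upk1a had 1.41, 4.995 and 11.9 CPM (lowest, median and highest) in fisetin kidneys, against 4.71, 6.40 and 8.94 CPM in control kidneys. Its lowest and its highest library were both fisetin kidneys, fisetin 3 and fisetin 6, with all controls between them. The mean was 5.56 ± 3.78 CPM with fisetin and 6.57 ± 1.63 CPM with the control diet (SD over 6 libraries each), giving a log2 difference of -0.30 ± 0.38 (SE). Upk1b ranged from 1.20 to 13.0 CPM (median 5.72) in fisetin kidneys, against 4.09 to 7.93 CPM (median 6.80) in control kidneys, with a log2 fold change of -0.16 ± 0.43 (SE). Again fisetin 3 was lowest and fisetin 6 highest. Upk2, the partner of Upk1a, ranged from 0.209 to 3.71 CPM (median 1.31) with fisetin and from 0.967 to 1.87 CPM (median 1.56) with the control diet, a 17.8-fold span over the 12 libraries. Its log2 fold change was 0.04 ± 0.46 (SE), and the fisetin values enclosed all control values.

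**Figure D1:**
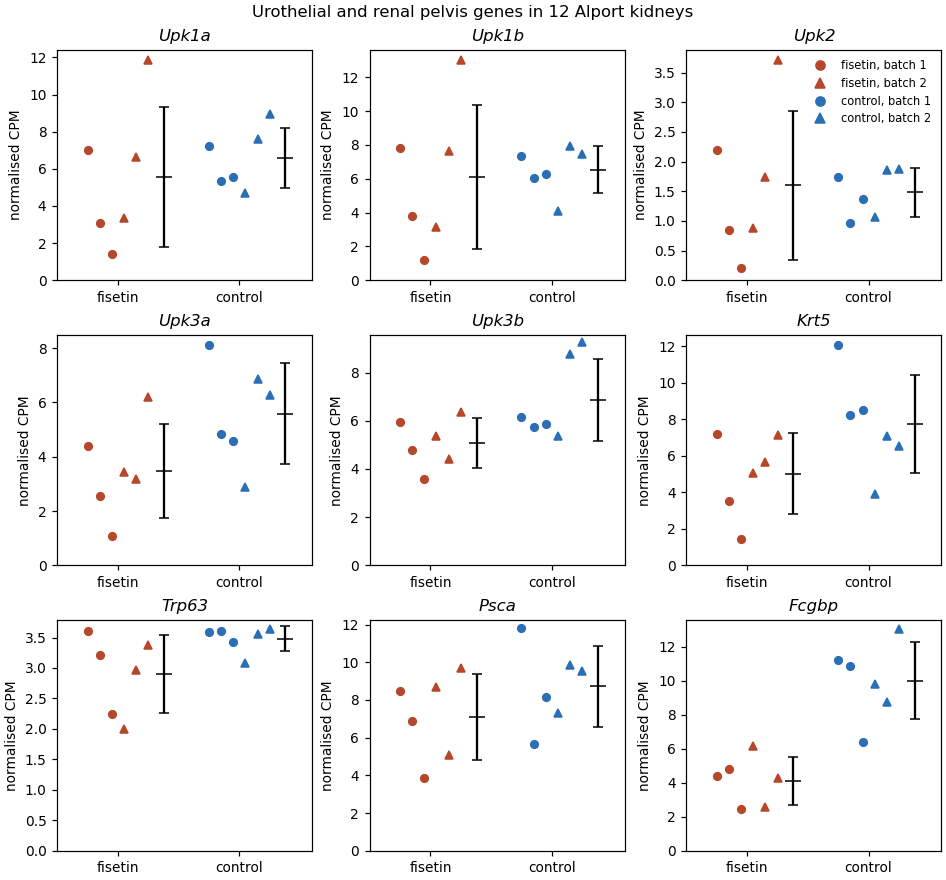
Normalised CPM (vertical axis) of the 9 genes in 6 fisetin kidneys (left) and 6 control kidneys (right), with circles for batch 1, triangles for batch 2 and bars for the mean and SD. Fcgbp is the gene whose fisetin values all lie below its control values, 6.13 CPM at most against 6.40 CPM at least.

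Upk3a and Upk3b, the alternative partners of Upk1b, averaged lower with fisetin, with overlapping groups. Upk3a had 1.09, 3.32 and 6.21 CPM (lowest, median and highest) in fisetin kidneys, against 2.88, 5.55 and 8.13 CPM in control kidneys. Of the 6 fisetin libraries, 5 lay below the control mean, and fisetin 6 lay above it. The log2 fold change was -0.71 ± 0.35 (SE). Upk3b, which is also known from mesothelium, had 3.60, 5.07 and 6.38 CPM in fisetin kidneys, against 5.38, 6.01 and 9.27 CPM in control kidneys. All 6 fisetin libraries lay below the control mean and 4 of them below every control, and the log2 fold change was -0.42 ± 0.16 (SE). Upk3b thus spanned 2.58-fold over the libraries, against 7.42-fold for Upk3a.

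Krt5 and Trp63 mark basal cells, and they differed in spread. Krt5 had 1.46, 5.37 and 7.20 CPM (lowest, median and highest) in fisetin kidneys, against 3.94, 7.65 and 12.1 CPM in control kidneys, with a log2 fold change of -0.61 ± 0.35 (SE). In batch 1 the fisetin mean was 4.07 CPM and the control mean 9.60 CPM (n = 3 each). In batch 2 they were 5.96 CPM with fisetin and 5.85 CPM with the control diet. Trp63, the master regulator of basal epithelial cells, was the steadiest member, with 2.00, 3.09 and 3.60 CPM in fisetin kidneys, against 3.08, 3.58 and 3.64 CPM in control kidneys. It averaged 2.90 ± 0.641 CPM with fisetin and 3.48 ± 0.212 CPM with the control diet (SD, n = 6 each), and 3 fisetin libraries lay below all controls. Its log2 fold change was -0.27 ± 0.15 (SE).

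Psca, a glycolipid-anchored surface protein first described in prostate and also found in urothelium, had 3.86, 7.69 and 9.70 CPM (lowest, median and highest) in fisetin kidneys, against 5.64, 8.86 and 11.8 CPM in control kidneys. The groups overlapped widely, and the log2 fold change was -0.30 ± 0.23 (SE).

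Fcgbp, a large secreted mucus protein that binds the Fc part of immunoglobulin G, had the widest gap between diets among the members. It had 4.39, 4.82, 2.45, 6.13, 2.56 and 4.25 CPM in fisetin kidneys 1 to 6, against 11.2, 10.9, 6.40, 9.80, 8.74 and 13.0 CPM in control kidneys 1 to 6. Every fisetin value was below every control value, and the closest were fisetin 4 and control 3. The mean was 4.10 ± 1.40 CPM with fisetin and 10.01 ± 2.28 CPM with the control diet (SD, n = 6 each), and the log2 fold change of -1.28 ± 0.23 (SE) is a ratio of 0.413. The log2 fold change was -1.28 in batch 1 alone and -1.26 in batch 2 alone. The gene ranked 16 by p among all genes tested.

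On the FPKM scale the Fcgbp groups did overlap. There it ran from 0.36 to 1.36 FPKM with fisetin, against 0.84 to 1.90 FPKM with the control diet, and averaged 0.758 ± 0.366 FPKM with fisetin and 1.39 ± 0.376 FPKM with the control diet (SD, n = 6 each). The transcript length implied by its counts and FPKM was not constant: 4133 to 6841 bases in fisetin kidneys, against 5694 to 7569 bases in control kidneys. Fisetin 4 and fisetin 6 had 4601 and 4133 bases, the shortest of the 12. The implied length also varied for Trp63, from 3094 to 4544 bases, and for Upk1b, from 1336 to 1605 bases, over the 12 libraries. For Upk1a it stayed between 1106 and 1133 bases. The part of this difference in the Fcgbp result was not tested. A neighbouring gene of the same family, 9530053A07Rik, named after its values were seen, was near 0, with at most 0.281 CPM with fisetin and 0.301 CPM with the control diet.

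In the whole-table test (edgeR's quasi-likelihood test with batch as a term, Benjamini-Hochberg adjustment over 17890 genes), 0 of 9 members passed an adjusted p of 0.05, where the background was 0% of genes. At an unadjusted p under 0.05 there were 2 members, Upk3b and Fcgbp, where 14.6% of all genes had such a p. Fcgbp had an edgeR adjusted p of 0.153, and the other 8 members had 0.303 to 0.968. By DESeq2's Wald test, 1 of 9 members passed, Fcgbp with an adjusted p of 0.000143, where 0.928% of genes passed. Over all alternatives, batches alone included, the adjusted p of Fcgbp ran from 0.000143 by DESeq2 to 0.749 by edgeR in batch 2 alone. In 1 of 9 members the groups did not overlap in CPM, where 0.894% of genes had groups that did not. Of the 9 members, 8 had a negative log2 fold change, and the median was -0.30, beside 0.00080 over all genes tested. The members vary together and were chosen with results known, so these counts are not independent of one another or of the choice. The test of whether the diet difference differed between batches called 0 members and 0% of genes by edgeR, with 0 members and 376 genes at an unadjusted p under 0.05, and 1 gene by DESeq2.

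**Figure D2:**
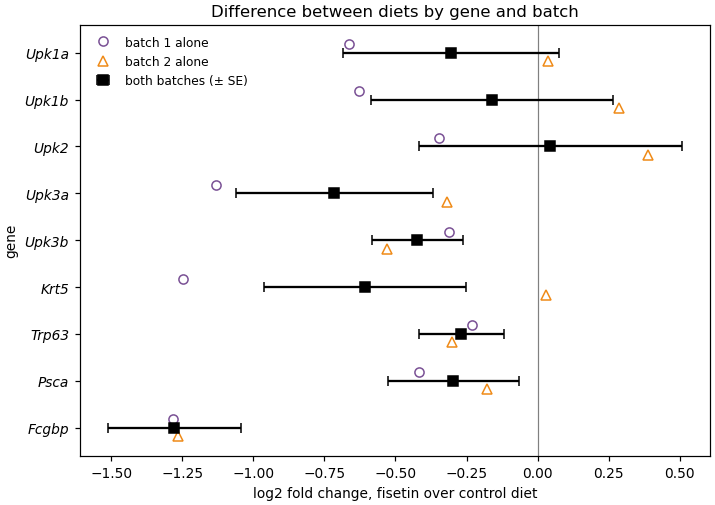
Log2 fold change of fisetin over control diet (horizontal axis) for the 9 genes, with squares and SE bars for both batches together, circles for batch 1 alone and triangles for batch 2 alone. Fcgbp sits near -1.28 in both batches, while Krt5 is at -1.25 in batch 1 and 0.03 in batch 2.

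Summed over the 5 uroplakins, the level was 27.4, 15.0, 7.51, 16.2, 23.6 and 41.2 CPM in fisetin kidneys 1 to 6, against 30.6, 22.9, 23.6, 18.1, 33.1 and 33.8 CPM in control kidneys 1 to 6. The fisetin kidneys thus held both the lowest and the highest sum. The mean was 21.8 ± 11.8 CPM with fisetin and 27.0 ± 6.37 CPM with the control diet (SD over 6 libraries each). The log2 ratio of these means was -0.31. Within batch 1 the mean was 16.6 CPM with fisetin and 25.7 CPM with the control diet, and within batch 2 it was 27.0 CPM with fisetin and 28.3 CPM with the control diet (n = 3 each). Without fisetin 3 the log2 ratio of means was -0.13.

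The members' levels moved together across the 12 kidneys, most tightly among Upk1a, Upk1b and Upk2. These are the values by which the genes were chosen, and they share libraries, depth and scaling, so they are given with no test. Over 36 pairs the Pearson r of log2 CPM had a median of 0.717 and ran from 0.258 to 0.978, and the Spearman rho had a median of 0.626 (n = 12). Among Upk1a, Upk1b and Upk2 all 3 pairs had r of 0.970 to 0.978. They stayed at 0.931 to 0.952 without fisetin 3, at 0.967 to 0.989 within batch 1 and at 0.961 to 0.982 within batch 2. The median over 36 pairs was 0.925 within batch 1, which holds fisetin 3, and 0.631 within batch 2 (n = 6 each). Without fisetin 3 it was 0.473, and without the 2 libraries farthest from the median uroplakin sum, fisetin 3 and fisetin 6, it was 0.536.

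**Figure D3:**
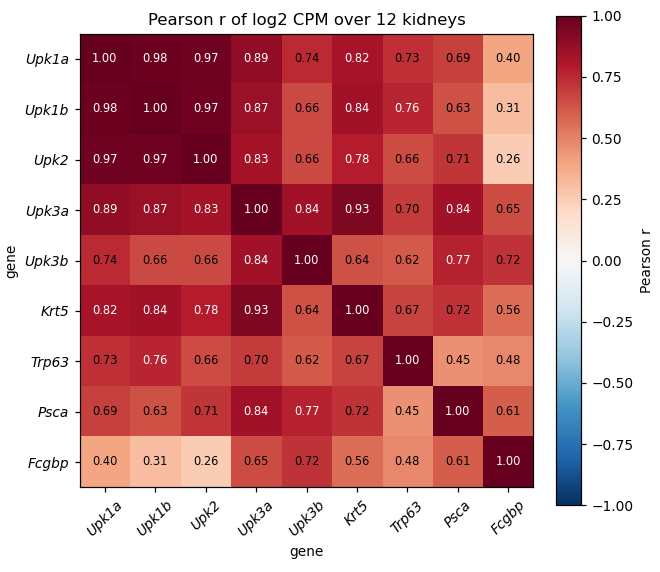
Pearson r of log2 CPM over 12 kidneys for each pair of the 9 genes (both axes), with red for positive values. Upk1a, Upk1b and Upk2 form a block of 0.97 to 0.98, and Fcgbp has the palest row, with 0.26 to 0.40 against those genes.

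Set against the summed CPM of the other uroplakins, the members formed a gradient. The r was 0.978 for Upk1a, 0.950 for Upk2, 0.939 for Upk1b and 0.9001 for Upk3a (n = 12). The basal keratin gene Krt5 followed at 0.862, and Psca, Upk3b and Trp63 lay at 0.750, 0.743 and 0.740. Fcgbp was last at 0.457. Without fisetin 3 the r was 0.952 for Upk1a, 0.885 for Upk2, 0.865 for Upk1b and 0.781 for Upk3a. It was then 0.670 for Krt5, 0.602 for Trp63, 0.582 for Upk3b, 0.513 for Psca and 0.131 for Fcgbp, so Psca, Upk3b and Trp63 came in the opposite order and the others kept theirs. Upk3a had its highest r with Krt5, at 0.932, and its highest rho with Upk3b, at 0.888. Without control 1 and fisetin 3, the 2 libraries farthest from its median, the r of Upk3a was 0.782 with Krt5 and 0.856 with Upk3b. Fcgbp had its highest r with Upk3b, at 0.720, then with Upk3a, at 0.649, and Psca, at 0.608. Within batch 2 the r of Fcgbp was -0.290 to -0.0722 with Upk1a, Upk1b and Upk2, but 0.721 with Upk3b and 0.626 with Psca (n = 6). Within batch 1 its r with Upk1a, Upk1b and Upk2 was 0.609 to 0.754 (n = 6). In fisetin 6, the library with the most uroplakin, Fcgbp had 4.25 CPM, less than in any control kidney. Whether the amount of pelvis sampled has a part in the Fcgbp result was not tested.

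**Figure D4:**
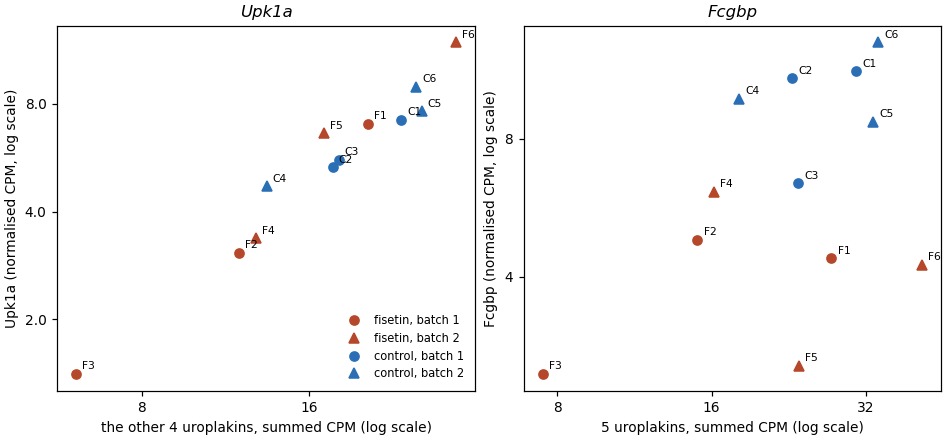
Upk1a against the summed CPM of the other 4 uroplakins (left) and Fcgbp against the sum of all 5 (right), on log axes of normalised CPM, with F for fisetin, C for control and the library number. Upk1a lies along 1 line (r = 0.978), and Fcgbp is more scattered (r = 0.457), with its fisetin values below its control values.

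Upk3a, Krt5 and Fcgbp are shown with the DNA just before their starts, since Upk3a and Krt5 are known from different cell layers and had an r of 0.932, and Fcgbp had the lowest r with the uroplakin sum. The RefSeq promoter table (GRCm38.p6) held 5 of the 9 members. The 250 bases before the RefSeq start are printed 5′ to 3′ on the gene's own strand: Upk3a at chr15:85016891-85017140 (plus strand), Krt5 at chr15:101712906-101713155 (minus strand) and Fcgbp at chr7:28070986-28071235 (plus strand). Capitals mark matches, on either strand, to the letters GATAA, known from factors such as Gata3, to TATAAA, which positions transcription starts, and to GGGCGG, which Sp-type factors bind. Searched too were AGGTCA, known from nuclear receptors such as Pparg, and AACCNGTT, known from grainyhead factors such as Grhl3. All motifs were picked after the sequences had been seen, and none overlapped another in these promoters.
Upk3a: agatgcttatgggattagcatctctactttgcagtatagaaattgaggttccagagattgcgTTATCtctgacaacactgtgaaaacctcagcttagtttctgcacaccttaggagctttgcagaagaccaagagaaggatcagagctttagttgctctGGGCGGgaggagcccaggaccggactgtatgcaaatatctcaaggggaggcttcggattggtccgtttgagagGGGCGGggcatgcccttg
Krt5: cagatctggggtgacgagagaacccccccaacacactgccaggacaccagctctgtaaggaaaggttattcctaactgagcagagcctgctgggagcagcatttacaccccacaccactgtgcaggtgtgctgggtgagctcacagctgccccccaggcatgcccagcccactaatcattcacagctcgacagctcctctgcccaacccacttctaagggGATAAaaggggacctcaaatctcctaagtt
Fcgbp: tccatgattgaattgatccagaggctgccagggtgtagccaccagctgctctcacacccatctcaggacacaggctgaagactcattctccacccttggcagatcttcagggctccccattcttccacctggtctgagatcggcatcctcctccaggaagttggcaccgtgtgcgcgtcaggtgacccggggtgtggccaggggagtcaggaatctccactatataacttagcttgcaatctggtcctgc
Upk3a held GATAA on the opposite strand, read as TTATC, 188 to 184 bases before the start, and GGGCGG at 91 to 86 and at 18 to 13 bases before it. Krt5 held GATAA 30 to 26 bases before the start, and Fcgbp held no exact match to any of these letters. Near matches were not searched. The Krt5 match reads on as GATAAAA, and the Fcgbp stretch holds TATATAA near its end, both close to TATAAA in letters. Of 32851 promoters of that length, 22.6% held GATAA, 12.4% TATAAA, 32.7% GGGCGG, 14.0% AGGTCA and 1.79% AACCNGTT, so such matches are common, and they say nothing of which factor binds. Their GC content was 49.6% for Upk3a, 56.0% for Krt5 and 56.4% for Fcgbp, beside a median of 52.4% over all promoters. On GRCm38 in the GENCODE M21 annotation, all 9 members are protein-coding, and Upk3a (chromosome 15, 85017141 to 85022547), Krt5 (chromosome 15, 101707070 to 101712898) and Psca (chromosome 15, 74714839 to 74717069) share a chromosome. Fcgbp (chromosome 7, 28071236 to 28120862) and Upk1a (chromosome 7, 30603092 to 30612847) share another.

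Of the marker lists for other tissues, the smooth muscle sum moved most closely with the uroplakin sum. Whether these transcripts came from the pelvic wall, from vessels or from other cells was not tested. The summed CPM of 10 contractile genes ran from 266 to 359 CPM in fisetin kidneys, against 304 to 407 CPM in control kidneys, and was lowest in fisetin 3. Its log2 level had r = 0.809 with the log2 uroplakin sum (rho = 0.713, n = 12), 0.866 within batch 1, 0.872 within batch 2 and 0.635 without fisetin 3 and fisetin 6. Acta2, smooth muscle actin, had r = 0.818, Tagln 0.543, Des, desmin, 0.513, and the cytoskeletal gene Smtn 0.256. Without fisetin 3 these were 0.702 for Acta2, 0.324 for Tagln, 0.0177 for Des and 0.0469 for Smtn. In all, 9 of 10 genes had r over 0.5 over the 12 kidneys, against 5 of 10 without fisetin 3. The share of all genes past that r was not counted, so these counts have no background beside them. Of the 10, 9 had a negative log2 fold change between diets, with a median of -0.16, where 49.8% of all genes tested had a negative one. By edgeR 0 of 10 passed, and by DESeq2 0 of the 9 to which it gave an adjusted p.

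Other genes known from urothelium followed the uroplakins unevenly. Of 15 tested, 7 had r over 0.5 with the uroplakin sum and 5 had r below 0 (n = 12). Without fisetin 3, 4 of the 15 had r over 0.5. Here too the share of all genes past that r was not counted. Krt15, a basal keratin, had r = 0.807, Sprr1a, a cornified envelope protein, 0.827 and the morphogen Shh 0.729, all named after their values were seen. Among the most abundant of the list, Adh1, an alcohol dehydrogenase, had r = -0.0647, the water channel gene Aqp3, also of the collecting duct, 0.0745 and the glutathione transferase gene Gsta4 0.513, or 0.321 without fisetin 3. Among 10 transcription factors, Foxa1 and Grhl3, named after their values were seen, had r of 0.812 and 0.773, and both 0.498 without fisetin 3, at 1.08 to 2.46 CPM on average, while the abundant Elf3, Rarg, Ehf and Gata3 had -0.494, 0.338, -0.369 and 0.340. By edgeR 0 of 15 and 0 of 10 of these genes passed between diets, and by DESeq2 0 of the 12 and 0 of the 9 to which it gave an adjusted p, with median log2 fold changes of -0.04 and -0.03.

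**Figure D5:**
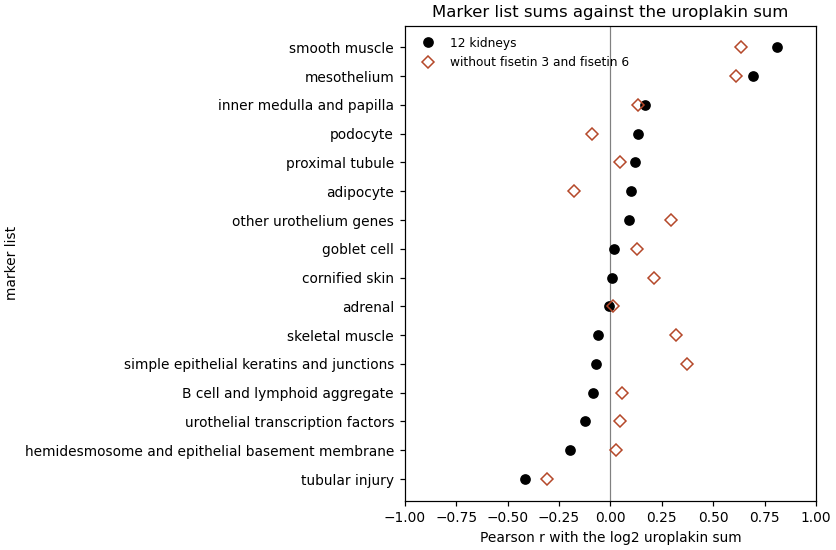
Pearson r between the log2 summed CPM of each marker list (vertical axis) and the log2 uroplakin sum (horizontal axis), over 12 kidneys (filled circles) and without fisetin 3 and fisetin 6 (open diamonds). Smooth muscle (0.81) and mesothelium (0.69) stand to the right, and all other lists lie at 0.17 or below over 12 kidneys.

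Mesothelium, the covering of the kidney's outer surface, was of interest because Upk1b and Upk3b are known there too. Its 8 markers summed to 110 to 129 CPM in fisetin kidneys, against 126 to 140 CPM in control kidneys, with r = 0.693 to the uroplakin sum and 0.878 to Fcgbp (n = 12). The r with Fcgbp was 0.600 once Fcgbp and the log2 sum were each centred within batch and diet. The sum rested on Gpm6a, Aldh1a2 and Krt19, which are not confined to mesothelium, and no single gene had r over 0.5 with the uroplakin sum. Of the defining markers, Bnc1 averaged 0.02 CPM on each diet, Lrrn4 at most 0.23 CPM and Muc16 at most 0.45 CPM. Msln, mesothelin, averaged 0.86 CPM with fisetin and 1.46 CPM with the control diet, with a log2 fold change of -0.72 and an edgeR adjusted p of 0.375, and had r = 0.798 with Fcgbp. The part of these cells in the Fcgbp result was not tested.

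The summed markers of the inner medulla, which borders the pelvis, followed the uroplakin sum weakly. Its 10 markers had r = 0.168 between their sum and the uroplakin sum and 0.528 with Fcgbp (n = 12). The sum rested mostly on Slc6a6, Nfat5 and Slc5a3, with means of 644, 388 and 373 CPM of 1645 CPM with fisetin. With the control diet these were 675, 386 and 399 CPM of 1817 CPM. Slc5a3 was named after its values were seen. The r with Fcgbp was 0.173 once Fcgbp and the log2 sum of the list were each centred within batch and diet. Of the 10, 9 had a negative log2 fold change, with a median of -0.36, where 49.8% of all genes tested had a negative one. Aqp4, a basolateral water channel, averaged 7.96 ± 2.79 CPM with fisetin and 19.1 ± 5.83 CPM with the control diet (SD, n = 6 each), and Slc14a2, the urea transporter of the inner medullary collecting duct, 31.8 ± 5.40 CPM with fisetin and 44.1 ± 6.69 CPM with the control diet. By edgeR 0 of 10 passed, and by DESeq2 these 2 passed of the 9 with an adjusted p, with adjusted p-values of 0.00316 for Aqp4 and 0.0394 for Slc14a2. Among the most abundant, Slc6a6, Aqp2, Akr1b3 and Nfat5 had r of 0.210, 0.165, 0.219 and 0.132 with the uroplakin sum. Slc14a2 had r = 0.521 with it (rho = 0.559, n = 12), 0.568 without fisetin 3 and 0.727 without fisetin 3 and fisetin 6. With Fcgbp, the r of Slc6a6, Aqp2, Akr1b3, Nfat5, Aqp4 and Slc14a2 was 0.423, 0.720, 0.715, -0.0225, 0.829 and 0.631 (n = 12). Centred within batch and diet, these were 0.349, 0.355, 0.402, 0.119, 0.550 and -0.0833. Whether the medulla share has a part in the Fcgbp result was not tested.

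The remaining marker lists followed the uroplakin sum weakly or not at all. Proximal tubule, podocyte, adipocyte, goblet cell and cornified skin sums had r of 0.117, 0.136, 0.0990, 0.0194 and 0.00572 (n = 12). The adrenal, skeletal muscle, simple keratin and junction, B cell, hemidesmosome and tubular injury sums had r of -0.00909, -0.0627, -0.0691, -0.0847, -0.194 and -0.416. Goblet cell markers, of interest because Fcgbp is a goblet cell product in gut, summed to at most 0.654 CPM with fisetin and 0.673 CPM with the control diet. All 5 male accessory gland genes were listed at 0 in every library. No tested gene of these lists passed by edgeR, or by DESeq2 where it gave an adjusted p.

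The genes whose pattern was most like the members' were found by the r of log2 CPM with the mean standardised level of the 9 members over the 12 kidneys. Of 17881 other genes, 42 had r over 0.8 and 7 over 0.9. Among the first 12 were Fat2, an atypical cadherin of basal epithelia, with r = 0.950, Sptssb, a subunit of serine palmitoyltransferase, with 0.944, Hhip, a hedgehog-binding protein, with 0.935 and 9130008F23Rik with 0.933. Sprr2a2, a small proline-rich cornified envelope gene with near-identical neighbours that may share its reads, had 0.919, the calpain gene Capn13 0.912 and Fer1l4 0.895. Myl9, a myosin light chain of smooth muscle, had 0.890, Olfr11 0.880, the ceramidase gene Acer2 0.879 and the bone morphogenetic protein gene Bmp2 0.878. All 12 had negative log2 fold changes, from -0.63 for Fer1l4 to -0.11 for Acer2, and 0 passed by edgeR. Of all genes tested, 49.8% had a negative one. As 8 of the 9 members were themselves lower with fisetin, the ranking favours that sign. The 12 genes were ranked on the same libraries, and without fisetin 2 and fisetin 3, the 2 libraries farthest from the median of that level, r was 0.584 to 0.884.

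The genes most like Fcgbp shared 0 names with those 12, in a ranking added after the data were seen. Ctnnal1, Loxl4, Smyd2, Jag2, Mrpl23-ps1, Gstm2, Ptges and Sbspon had r of 0.901 to 0.939 with it (n = 12). Ptges, a prostaglandin E synthase, averaged 17.2 ± 2.70 CPM with fisetin and 25.4 ± 1.49 CPM with the control diet (SD, n = 6 each). Its groups did not overlap, as in 0.894% of all genes tested. Nor did those of Ctnnal1, with at most 41.5 CPM with fisetin and at least 44.0 CPM with the control diet. The same held for Sbspon, with at most 3.25 CPM with fisetin and at least 3.52 CPM with the control diet. The adjusted p of Ptges was 0.145 by edgeR and 4.43e-05 by DESeq2. Fcgbp itself separated by diet, so a ranking by r with it favours genes with a diet gap, and that gap supports nothing further. After centring within batch and diet, r with Fcgbp was 0.613 for Ptges and 0.883 for Ctnnal1, an alpha-catenin-like protein.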

How the data were processed

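Kidney messenger RNA was measured in 12 libraries, with KAPA mRNA HyperPrep libraries per the labels' protocols. Per the submitters' processing notes, the tools were STAR, featureCounts, fastp and DESeq2 (versions not given) on GRCm38, also named mm10. How reads were assigned to genes, and from which annotation, is not given in the sources used here. Per the file headers, 3 values were deposited per library: an estimated count, a TPM and an FPKM. The deposited counts were not scaled for depth, 13.9% of values above 0 were not whole (tolerance 1e-06), and all were rounded. The deposited TPM and FPKM values were scaled by the authors for transcript length and depth, and one deposited FPKM with its count gives the implied transcript length.

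Genes were filtered with filterByExpr (minimum count 10), scaled with TMM and tested with glmQLFit (robust) and glmQLFTest of edgeR 4.0.16 in R 4.3.3, two-sided, with terms for batch and diet and Benjamini-Hochberg adjustment (threshold 0.05). DESeq2 1.42.0 on the same genes and limma 3.58.1 on log2(TPM + 1), on genes with a mean TPM of at least 0.5, were alternatives, and 1403 adjusted p-values that DESeq2 gave as NA stayed so. Other alternatives were the scaling, no filter, no batch term, each batch alone and leaving out each library. Correlations used log2 CPM (prior count 2), in Python 3.11.15. The edgeR steps were tested on simulated counts.

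The members and marker lists were chosen with earlier results of these data known. The text names all 9 members, in each list described in detail up to 4 genes of highest mean TPM and any past the diet threshold, and the 12 genes most like the members, apart from some that are not reported here. Aqp4, Slc14a2 and others said to be so were named after their values were seen. Promoters came from RefSeq and gene positions from GENCODE M21. Libraries compared in 66 pairs differed by at least 7.00 times counting noise (chi-square over its degrees of freedom, over genes averaging 20 counts or more), so none was a copy of another.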

Additional observations from a re-analysis of the deposited data

Results flagged for a closer look

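The member genes and their sums gave no library far from its group, of 52 groups of 6 libraries checked over 9 members, the uroplakin sum and the marker list sums. In 3 marker lists 1 library lay far from the other 5 of its diet by Dixon's test, which chance alone does in about 1 in 20 groups. The tubular injury sum was 2816 CPM in fisetin 6, the library with the most uroplakin, and at least 4474 CPM in the other fisetin kidneys. The adrenal sum was 3.43 CPM in fisetin 5, where the next fisetin kidney had 1.98 CPM. The adipocyte sum was 439 CPM in control 3, where the next control kidney had 155 CPM. The part of these in the members' levels was not tested.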

How the results depend on the processing

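The number of genes passing between diets was 0 by edgeR, 153 by DESeq2 and 1 in batch 1 alone, and leaving out 1 library gave 0 to 70, with 70 without fisetin 6 and 1 without fisetin 4. DESeq2 called 1 gene for the diet by batch interaction, and leaving out 1 library gave 0 to 0 by edgeR. For the 9 members, 170 of 180 alternative values kept their direction and their side of the threshold, 9 changed sign and 1, Fcgbp by DESeq2 (-1.28), passed. Signs changed in batch 2 alone for Upk1a (0.035), Upk1b (0.29) and Krt5 (0.030), and for Upk2 in batch 1 alone (-0.35). Leaving out 1 library gave log2 fold changes of -0.47 to 0.080 for Upk1b, positive without fisetin 3, and of -0.33 to 0.28 for Upk2, negative without fisetin 1 (-0.25), fisetin 6 (-0.33), control 2 (-0.0062) or control 4 (-0.10). For Fcgbp it gave -1.43 to -1.15, with edgeR adjusted p of 0.0591 to 0.477, and limma on log2(TPM + 1) gave -0.34. That scale shrinks changes of low genes, and TPM is also scaled for transcript length. The mean TPM of Fcgbp was 0.492 with fisetin and 0.892 with the control diet. The median r of member pairs was 0.473 to 0.790 on leaving out 1 library, lowest without fisetin 3, and 0.536 without fisetin 3 and fisetin 6. The log2 uroplakin ratio ran from -0.59 without fisetin 6 to -0.13 without fisetin 3, and was -0.63 in batch 1 and -0.07 in batch 2, an alternative added after the data were seen. The causes were not tested. No paired analysis was possible because the library numbers follow accession order and pair nothing. Depth limits Upk2 most, at 4 to 68 counts a library.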
